A study of Danio rerio with 6 samples.

Results

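Ion channels and neurotransmitter receptors were examined in zebrafish embryos injected with a morpholino against setb, through the genes whose symbols begin with the letters of these families. Channel symbols began with kcn, scn and a digit, or cacn. Receptor symbols began with gabr, gabbr, gria, grik, grin or grm and a digit, glr, chrn, chrm, htr, drd or adr. Of 11304 genes with a value, 74 matched, each through 1 probe set that lists a single gene. They comprised 37 channel genes and 31 receptor genes. The other 6 matched by letters alone, as they encode glutaredoxins (glrx, glrx2, glrx3 and glrx5) and serine proteases (htra1a and htra2-14), and they were kept apart.

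The study measured total RNA on 6 Affymetrix arrays, 3 from embryos given a control morpholino and 3 from embryos given setb MO1. Injection was at the one-cell stage and RNA was taken at 48 h after fertilization, so that the control embryos carried a morpholino too, and the labels name no strain. Morpholinos are antisense oligomers that block the translation or splicing of a transcript, and setb encodes a counterpart of the histone chaperone SET. Embryos had been scored as normal-like, mild or moderate. Which class went into each RNA sample, how many embryos were pooled and whether replicates were separate clutches is not in the labels, and p-values therefore measure a spread between samples that may be technical.

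Voltage-gated sodium, calcium and potassium channels are pore proteins with accessory subunits that carry the action potential and couple it to transmitter release and to muscle contraction. At synapses, glutamate and acetylcholine open cation channels and GABA and glycine open chloride channels. Slower receptors for glutamate, acetylcholine, GABA and the monoamines act through G proteins. By the second day of development zebrafish embryos swim when touched, which calls on sensory neurons, spinal circuits, the neuromuscular junction and the coupling of the muscle membrane to calcium release.

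Values were log2 intensities made by the authors with RMA, with array medians of 9.47 to 9.49. Across probe sets, arrays of one group correlated at 0.964 to 0.990 and arrays of different groups at 0.884 to 0.930. The setb transcript itself was at 12.51, 12.48 and 12.38 in controls and 12.69, 12.60 and 12.66 in setb MO1 samples. It was higher without overlap, by 0.19 ± 0.066 on the log2 scale (SE, n = 3 and 3, limma adjusted p = 0.0465). The transcript level does not check the labels where a morpholino acts on translation. Every probe set in the table reached 8.45 in at least 1 array. Of the 68 channel and receptor genes, 44 reached this level in both groups, 18 in control arrays alone and 6 in setb MO1 arrays alone. Of all 11304 genes, 10096 did so in both groups, 650 in control arrays alone and 558 in setb MO1 arrays alone. How dim probe sets were removed is not given. A gene of the last 2 kinds may have entered the table only through the group in which it was high, so the counts of members that rose or fell are descriptions. RefSeq lists 348 protein-coding channel and receptor symbols under the same rule, and those without a probe set of their own in the table were not analysed here. In whole embryos, fewer cells of a type and less RNA in each cell cannot be told apart.

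Channel and receptor genes changed in both directions, more often downwards when all 68 were counted. Of 37 channel genes, 16 fell (43.2%), 6 rose (16.2%) and 15 did not pass. Of 31 receptor genes, 15 fell (48.4%), 8 rose (25.8%) and 8 did not pass. A gene passed at an adjusted p under 0.05 by limma with Benjamini-Hochberg adjustment over all genes, and by this rule 44.7% of all 11304 genes changed, 20.8% having fallen and 23.9% having risen. The share of receptor genes that rose was near that of all genes. The median change on the log2 scale, setb MO1 minus control, was −0.22 for channel genes, −0.27 for receptor genes and 0.02 for all genes. Few changes were large, with 2 of the 68 genes, grik3 and kcnq2b, at least 2-fold lower and none at least 2-fold higher, against 1.80% and 1.06% of all genes. Of the 31 genes that fell, 14 reached 8.45 in control arrays alone, and of the 14 that rose, 3 did so in setb MO1 arrays alone. Among all genes, 475 of the 2351 that fell reached it in control arrays alone. Of the 2702 that rose, 412 did so in setb MO1 arrays alone. The arrays of the groups did not overlap for 34 genes that were lower in setb MO1 embryos and for 15 that were higher, whereas 19 overlapped. Among all genes, 27.4% lay lower and 30.6% higher without overlap. The number of receptor genes that rose was 4 without control replicate 1, 3 without control replicate 2, 5 without setb MO1 replicate 1 and 4 without setb MO1 replicate 3. Above the 30th percentile of mean level, 7 of 18 channel and 3 of 9 receptor genes fell, beside 1586 of 7913 genes in all. There 5 channel and 3 receptor genes rose, beside 1934 of all genes. Above the median, 2 of 8 channel and 0 of 4 receptor genes fell, beside 1141 of 5652. Of the same genes, 2 channel and 2 receptor genes rose, beside 1395 in all, so the lead of falls was not seen among these brighter genes. At an unadjusted p under 0.05 by limma, 1 of these receptor genes, chrne, was lower.

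**Figure D1:**
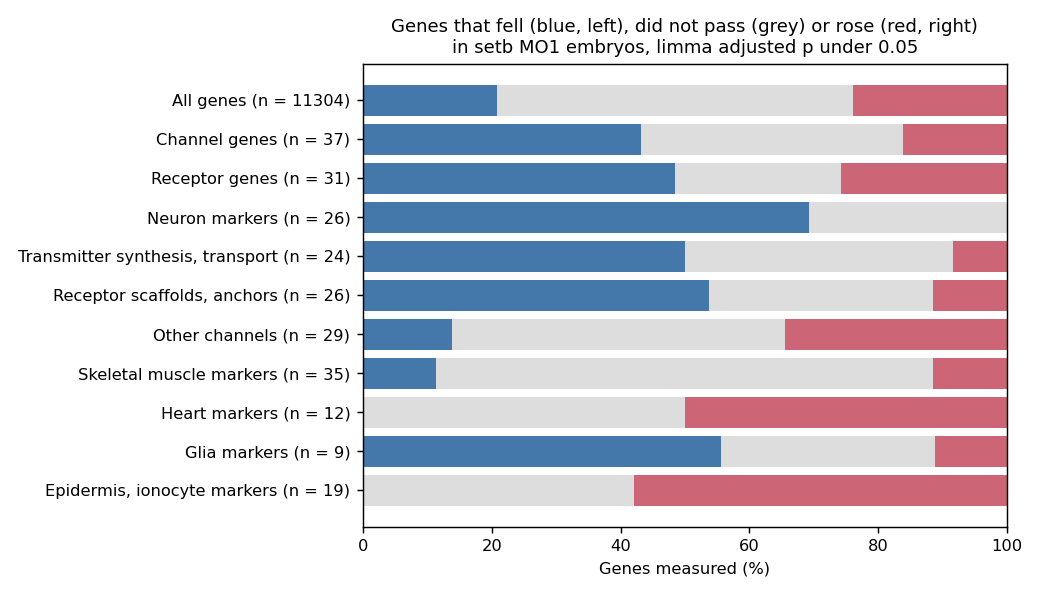
Share of genes that fell, did not pass or rose in setb MO1 embryos, for all genes, the 37 channel genes, the 31 receptor genes and the lists of related and marker genes, as a percentage of the genes measured in each (n on the axis). Genes fell in 43.2% of channels and 48.4% of receptors against 20.8% of all genes, and in 69.2% of the neuron markers.

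Markers of the cell types that whole embryos hold moved as well. Of all genes, 20.8% fell and 23.9% rose. Of 40 listed neuron markers 26 were in the table, 18 of which fell (69.2%) and none rose. Their mean log2 level was 10.09 to 10.19 over the control arrays and 9.61 to 9.66 over the setb MO1 arrays. Among them were rbfox1, a neuronal splicing factor (−0.82 ± 0.061), the synapsin gene syn2a (−0.84 ± 0.064) and the neurexin gene nrxn1a (−0.67 ± 0.064; SE, n = 3 and 3 as for all changes below). Of 47 skeletal muscle markers 35 were measured, 4 fell and 4 rose (11.4% each). Thus 22.9% of the muscle markers changed, fewer than the 44.7% of all genes. Their mean was 12.02 to 12.08 over control and 12.06 to 12.07 over setb MO1 arrays. Of 20 heart markers 12 were measured, of which 6 rose (50%) and none fell, with means, in the same order, of 9.06 to 9.16 and 9.40 to 9.54. Of 19 markers of glia 9 were measured, with 5 lower (55.6%) and 1 higher (11.1%). Of 26 epidermis and ionocyte markers 19 were measured, with 11 higher (57.9%) and none lower. The glia means were 10.36 to 10.46 and 9.95 to 10.03, and those of the epidermis list 10.78 to 10.85 and 11.05 to 11.09. At an unadjusted p under 0.05 by limma, the counts of 0 stayed at 0 for neuron and heart markers, and 1 epidermis marker was lower. Of the neuron markers that fell, 4 reached 8.45 in control arrays alone, syn2a among them. Of the markers that rose, 2 of the heart list and 1 of the epidermis list reached it in setb MO1 arrays alone. The part of these cell types in the changes of the channel and receptor genes was not tested.

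**Figure D2:**
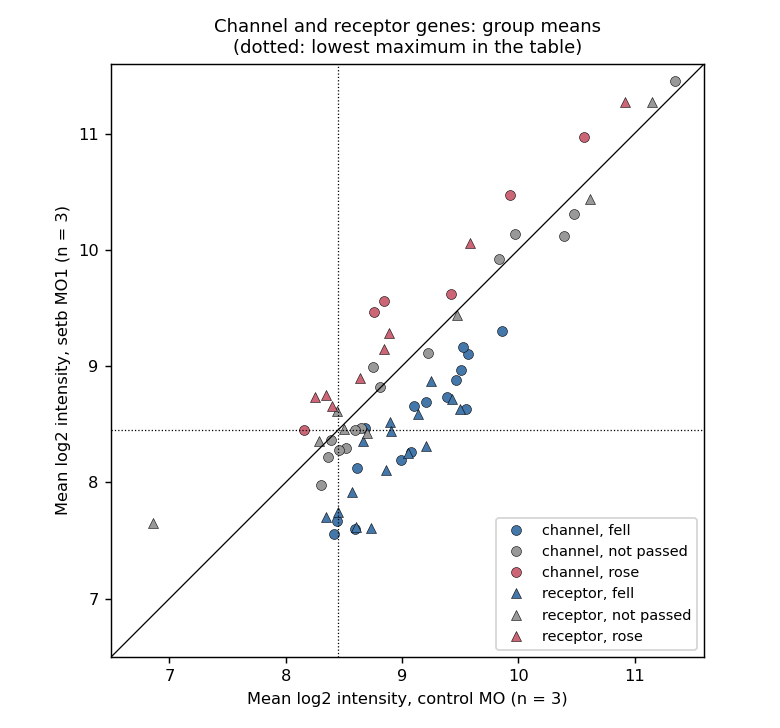
Mean log2 intensity in setb MO1 embryos (vertical axis) against control embryos (horizontal axis, n = 3 each) for the 68 channel and receptor genes, coloured by call, with the line of equal values and, dotted, the level of 8.45 that every probe set reached in at least 1 array. Many genes that fell lie below the dotted line on the setb MO1 axis and above it on the control axis. Several genes lie below it on both, among them chrng and, of those that fell, scn1lab and gabrp.

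Sodium channel genes fell or did not pass. Here and among the voltage-gated potassium, inward rectifier, GABA-A and glycine receptor genes below, counts of 0 by limma were also 0 at an unadjusted p under 0.05. Of 7, 4 fell (57.1%, against 20.8% of all genes), none rose (against 23.9%) and 3 did not pass, with a median of −0.36. The pore gene scn1lab, a counterpart of the human sodium channel gene SCN1A, had a log2 level of 8.26, 8.43 and 8.54 in controls and 7.61, 7.42 and 7.64 in setb MO1 samples. All 3 setb MO1 arrays lay below the control arrays, a change of −0.86 ± 0.10 (1.81-fold lower, limma adjusted p = 0.000544). The setb MO1 arrays did not reach 8.45. The other measured pore genes were the scn8 pair, which in mammals serves the initial segment and nodes of axons. For scn8aa the arrays were at 9.32, 9.64 and 9.43 in controls and 8.83, 8.81 and 9.0 in setb MO1 samples, without overlap and 1.5-fold lower (−0.58 ± 0.10, adjusted p = 0.00306). Its paralog scn8ab was at 8.15, 8.46 and 8.30 in controls and 7.98, 7.79 and 8.16 in setb MO1 samples, with overlap in 1 array of each group, and missed the threshold (−0.33 ± 0.12, adjusted p = 0.0526, 95% interval −0.60 to −0.057). It passed without control replicate 1 (adjusted p = 0.0287) or without setb MO1 replicate 3 (0.0317), in a limma fit to the gene rows alone (0.0473) and with array weights (0.000526). The weighted fit rested on control replicate 2, and in it 12 matching genes passed that did not as reported, scn8ab among them.

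Beta subunits are single-pass proteins that set the gating and the placement of the sodium channel. The gene scn2b was at 9.48, 9.59 and 9.45 in controls and 8.86, 8.89 and 9.15 in setb MO1 samples, lower in every setb MO1 array (−0.53 ± 0.093, adjusted p = 0.00339). Levels of scn1bb were 9.77, 9.46 and 9.36 in controls and 9.09, 9.17 and 9.23 in setb MO1 samples, also without overlap, with control replicate 1 above the others (−0.36 ± 0.11, adjusted p = 0.0329). The gene lost its call without control replicate 2 (adjusted p = 0.0672) or without setb MO1 replicate 1 (0.0994), 2 (0.0806) or 3 (0.0569). The gene scn4ba changed by −0.28 ± 0.10 without passing (adjusted p = 0.0544), although its groups did not overlap, and it passed without control replicate 3 (adjusted p = 0.0377). It also passed in the fit to gene rows alone (0.0484), among genes above the median level (0.0493), with a robust prior that follows the level (0.0460) and with replicate number as a block (0.0250). Under array weights scn4ba passed too (0.00239), in the fit that rested on control replicate 2. The fourth, scn3b, did not pass at 0.0056 ± 0.065, with an interval of −0.15 to 0.16, and its sign turned without control replicate 3 (−0.014) or setb MO1 replicate 3 (−0.025).

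Of 16 calcium channel genes, 8 fell (50%, against 20.8% of all genes) and 4 rose (25%, near the 23.9% of all genes). Of 3 pore genes 2 fell and 1 rose, and of 13 accessory genes 6 fell, 3 rose and 4 did not pass. The pore gene cacna1aa, for the P/Q-type channel that triggers transmitter release, was at 8.84, 9.10 and 9.04 in controls and 8.37, 8.15 and 8.05 in setb MO1 samples. It was 1.75-fold lower, with no overlap (−0.80 ± 0.11, adjusted p = 0.00107), and reached 8.45 in the control arrays alone. The other 2 pore genes, cacna1sa and cacna1sb, belong to skeletal muscle and are described with the muscle receptor complex.

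Among the accessory genes of neurons, cacnb4b encodes a cytoplasmic beta subunit that brings the pore to the membrane. Its arrays were at 9.64, 9.56 and 9.45 in controls and 8.67, 8.69 and 8.52 in setb MO1 samples, a fall of 1.89-fold (−0.92 ± 0.079, adjusted p = 0.000256). The genes cacng2a and cacng3b encode proteins of the stargazin kind, which in mammals escort AMPA receptors rather than calcium channels. Levels of cacng2a were 8.50, 8.47 and 8.37 in controls and 7.66, 7.58 and 7.76 in setb MO1 samples. Those of cacng3b were 9.17, 8.97 and 9.08 in controls and 8.21, 8.24 and 8.34 in setb MO1 samples. Both were lower in every setb MO1 array, at −0.78 ± 0.073 (adjusted p = 0.000320) and −0.81 ± 0.076 (adjusted p = 0.000314), and neither reached 8.45 there. The third gene of this kind, cacng5b, did not pass (−0.025 ± 0.091, interval −0.24 to 0.19), and its sign turned without setb MO1 replicate 1 (0.0032) or 2 (0.040).

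Of the alpha-2-delta genes, whose extracellular products raise the number of channels at the membrane, cacna2d2a was at 8.91, 9.20 and 9.19 in controls and 8.76, 8.56 and 8.65 in setb MO1 samples. The lowest control array stood above the highest setb MO1 array (−0.44 ± 0.10, adjusted p = 0.0101). Its relative cacna2d3 changed by −0.22 ± 0.059 (adjusted p = 0.0220), a call lost without control replicate 2 (adjusted p = 0.0737) or without setb MO1 replicate 1 (0.0615), 2 (0.0525) or 3 (0.0682). The beta subunit gene cacnb2a, known from the heart and from neurons, fell without overlap (−0.46 ± 0.11, adjusted p = 0.0126). The beta subunit gene cacnb3b did not pass (−0.23 ± 0.091, adjusted p = 0.0809), but did without control replicate 3 (adjusted p = 0.0376).

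Of 14 potassium channel genes, 4 fell (28.6%, against 20.8% of all genes) and 2 rose (14.3%, against 23.9%). In all, 42.9% of them changed, near the 44.7% of all genes. Those that fell were of the voltage-gated kinds. Of 6 genes for voltage-gated pores, 4 fell (66.7%), none rose and 2 did not pass, with a median of −0.50. The gene kcnq2b encodes a subunit of the M-current, which holds back repetitive firing. It was at 8.63, 8.74 and 8.43 in controls and 7.67, 7.52 and 7.60 in setb MO1 samples, the largest fall among the channel genes at 2.0-fold (−1.0 ± 0.092, adjusted p = 0.000293), with setb MO1 arrays well below 8.45. The Shaker-type gene kcna3a was at 9.20, 9.43 and 9.53 in controls and 8.77, 8.74 and 8.68 in setb MO1 samples, with every setb MO1 array below the controls (−0.66 ± 0.093, adjusted p = 0.00144).

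The Shaw-type genes kcnc1a and kcnc3a encode the rapid channels of fast-spiking neurons. Levels of kcnc3a were 9.16, 9.20 and 9.26 in controls and 8.81, 8.62 and 8.65 in setb MO1 samples. Those of kcnc1a were 8.44, 8.67 and 8.74 in controls and 8.23, 7.97 and 8.17 in setb MO1 samples. Groups stood apart for both, at −0.51 ± 0.073 (adjusted p = 0.00147) and −0.49 ± 0.11 (adjusted p = 0.00793). The gene kcnc1a reached 8.45 in control arrays alone. The other Shaker-type genes overlapped and did not pass, kcna1a at −0.14 ± 0.072 (interval −0.31 to 0.025) and kcna7 at −0.18 ± 0.11 (interval −0.44 to 0.082).

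Other potassium channel genes rose or did not pass. None of the 4 inward rectifier genes passed (against 44.7% of all genes), and each overlapped between the groups (against 4752 of all 11304 genes). They were kcnj2a, whose product sets the resting potential of muscle (−0.11 ± 0.10), kcnj6 of the G protein-gated kind (−0.15 ± 0.084), kcnj11 of the ATP-sensitive channel (0.16 ± 0.088) and kcnj13, which shapes the zebrafish pigment pattern (0.091 ± 0.084). Their 95% intervals ran from −0.35 for kcnj6 to 0.37 for kcnj11. The tandem-pore gene kcnk6, which encodes a background channel, was at 9.78, 9.86 and 10.13 in controls and 10.43, 10.54 and 10.45 in setb MO1 samples, higher in every setb MO1 array (1.46-fold, 0.55 ± 0.10, adjusted p = 0.00388). Its relative kcnk5a was at 7.91, 9.04 and 9.29 in controls and 8.81, 8.99 and 9.18 in setb MO1 samples. Here control replicate 1 lay over 1 log2 unit below the other controls, and the change of 0.25 ± 0.33 did not pass and became −0.17 without that array. The calcium-activated channel gene kcnn3 was at 7.95, 8.22 and 8.31 in controls and 8.49, 8.40 and 8.47 in setb MO1 samples and rose by 0.29 ± 0.10 (adjusted p = 0.0466). It reached 8.45 in setb MO1 arrays alone. The call on kcnn3 was lost without control replicate 1 (adjusted p = 0.0667) or 2 (0.0896) or without setb MO1 replicate 1 (0.120), 2 (0.0828) or 3 (0.111), and it also fell away with equal array medians (adjusted p = 0.0543) and with a trended and robust prior (0.0628). The gene kcnip4a, for an accessory protein of A-type channels, did not pass (−0.18 ± 0.085, interval −0.38 to 0.021).

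**Figure D3:**
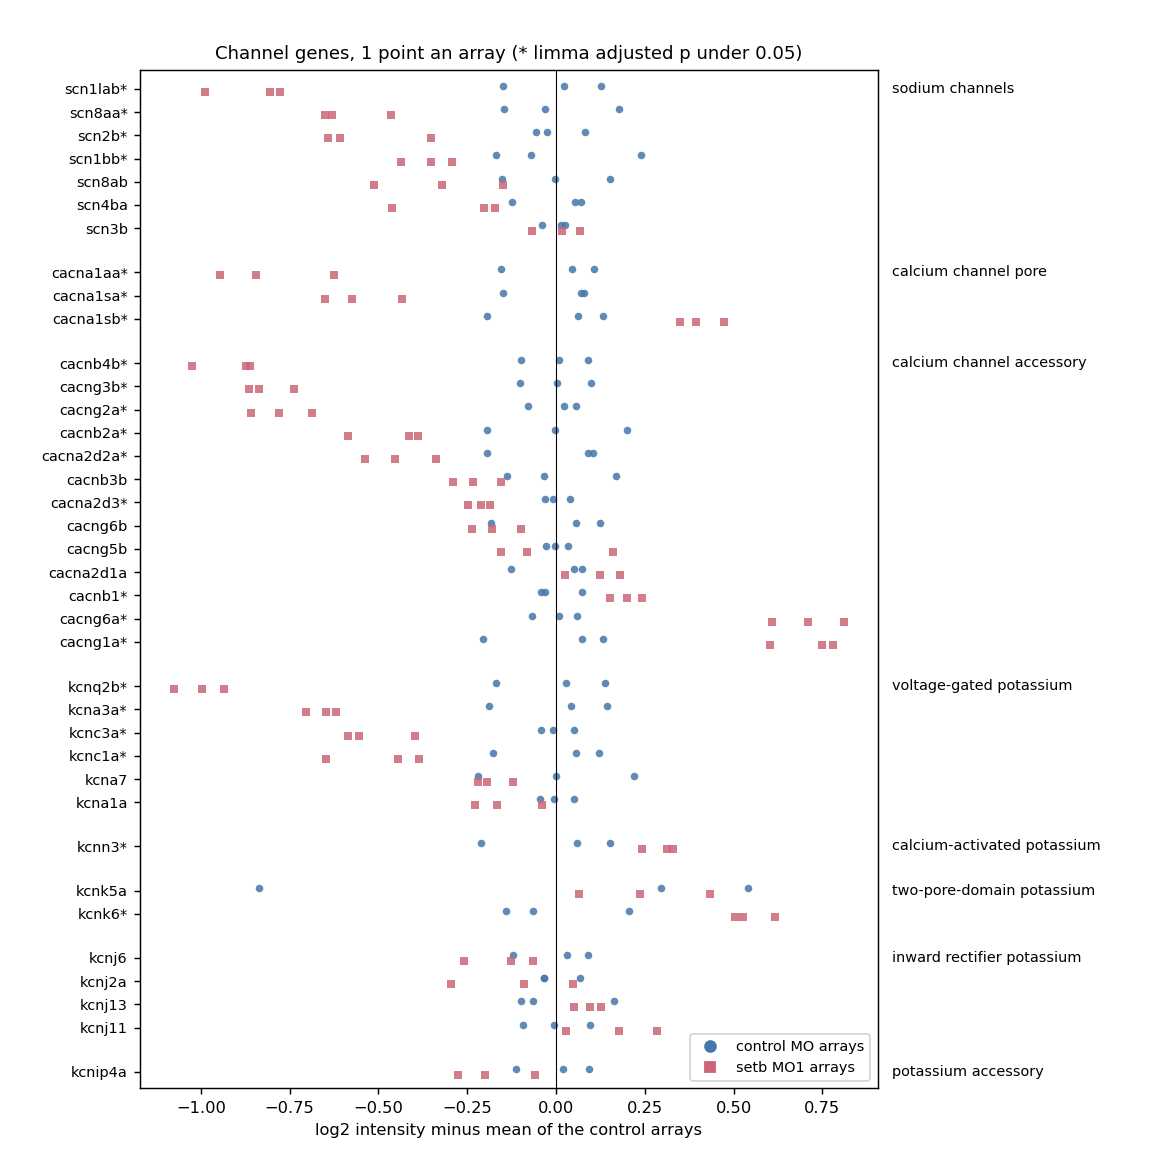
Log2 intensity of the 37 channel genes in each array, less the gene's mean over the control arrays (horizontal axis), with control arrays as circles and setb MO1 arrays as squares, grouped by subclass. Stars mark the 22 genes that passed. The pore genes of voltage-gated sodium and potassium channels lie at or left of 0 in the setb MO1 arrays, the inward rectifiers around 0, and cacna1sb, cacng1a, cacng6a and kcnk6 to the right.

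Receptor genes for GABA and glycine fell, apart from glra4a. Of 7 genes 6 fell (85.7%, against 20.8% of all genes) and none rose (against 23.9%), with a median of −0.64. All 4 measured GABA-A subunit genes were among those that fell, and the smallest p-value belonged to gabra2b, at 9.54, 9.46 and 9.30 in controls and 8.75, 8.64 and 8.75 in setb MO1 samples (−0.72 ± 0.08, adjusted p = 0.000531). The alpha subunit gene gabra5 was at 8.75, 8.64 and 8.31 in controls and 8.03, 7.94 and 7.78 in setb MO1 samples, without overlap (−0.65 ± 0.13, adjusted p = 0.00509). The other GABA-A genes were gabrp of the pi subunit at −0.64 ± 0.12 (adjusted p = 0.00539) and gabra3 at −0.38 ± 0.11 (adjusted p = 0.0305), whose call did not hold without control replicate 2 (adjusted p = 0.111) or 3 (0.0678) or without setb MO1 replicate 2 (0.0970) or 3 (0.0806).

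Glycine receptors carry much of the fast inhibition of the spinal cord and hindbrain, and a zebrafish mutant of glrbb cannot swim normally. The beta subunit gene glrbb was at 9.15, 9.11 and 9.15 in controls and 8.47, 8.82 and 8.48 in setb MO1 samples. Every setb MO1 array was below the controls, with replicate 2 the nearest to them (1.46-fold lower, −0.55 ± 0.10, adjusted p = 0.00434). The alpha subunit gene glra1 was at 8.67, 8.46 and 8.22 in controls and 7.77, 7.89 and 7.56 in setb MO1 samples, 1.63-fold lower and without overlap (−0.71 ± 0.13, adjusted p = 0.00440). The control arrays of gabra5, gabrp and glra1 lay close to 8.45, and their setb MO1 arrays below it. The remaining alpha gene, glra4a, overlapped between groups (−0.029 ± 0.08, interval −0.22 to 0.16), and its sign turned without setb MO1 replicate 3 (0.037).

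Receptor genes for glutamate that open ion channels fell in 5 of 6 cases (83.3%, against 20.8% of all genes), with a median of −0.83. The kainate receptor gene grik3 was at 8.72, 8.80 and 8.67 in controls and 7.73, 7.59 and 7.51 in setb MO1 samples. It had the largest fall of all 68 genes, at 2.18-fold (−1.12 ± 0.078, adjusted p = 0.000174), and its setb MO1 arrays were more than 0.7 log2 units below 8.45. All 3 measured AMPA receptor genes, whose products carry most fast excitation in the brain, fell. Levels of gria2a were 9.17, 9.36 and 9.10 in controls and 8.51, 8.21 and 8.22 in setb MO1 samples, 1.86-fold lower (−0.89 ± 0.11, adjusted p = 0.000773). Those of gria4b were 8.82, 8.93 and 8.84 in controls and 8.21, 8.02 and 8.09 in setb MO1 samples, 1.69-fold lower (−0.76 ± 0.074, adjusted p = 0.000352). The change of gria3b was −0.79 ± 0.12 (adjusted p = 0.00206), and no AMPA gene overlapped between the groups. Both gria3b and gria4b reached 8.45 in control arrays alone.

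The measured NMDA receptor genes moved in opposite directions. The gene grin1a encodes the subunit that every NMDA receptor holds, and it was at 9.43, 9.57 and 9.48 in controls and 8.71, 8.56 and 8.61 in setb MO1 samples, 1.82-fold lower (−0.87 ± 0.072, adjusted p = 0.000234). Its partner subunit gene grin2ca was at 8.64, 8.90 and 8.98 in controls and 9.16, 9.08 and 9.22 in setb MO1 samples, higher in every setb MO1 array (0.31 ± 0.10, adjusted p = 0.0373). The call on grin2ca was lost without control replicate 1 (adjusted p = 0.0571) or 2 (0.0762) or without setb MO1 replicate 1 (0.0912), 2 (0.0607) or 3 (0.108). Within arrays, the log2 difference of grin2ca less grin1a was −0.79, −0.67 and −0.50 in controls and 0.44, 0.52 and 0.61 in setb MO1 samples. The groups did not overlap, with an exact two-sided permutation p = 0.1, the smallest that 3 against 3 arrays allow (0.12 adjusted over the 6 such pairs of genes computed, which were chosen after their values were seen).

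Neuronal nicotinic receptor genes differed among themselves. The gene chrnb3a, a beta subunit of neuronal receptors, was at 8.64, 8.66 and 8.52 in controls and 7.63, 7.72 and 7.50 in setb MO1 samples, 1.98-fold lower without overlap (−0.99 ± 0.08, adjusted p = 0.000226), and did not reach 8.45 in setb MO1 embryos. In the other direction, chrna5, which encodes an accessory alpha subunit, was at 8.90, 8.79 and 8.99 in controls and 9.11, 9.33 and 9.41 in setb MO1 samples and rose by 0.39 ± 0.10 (adjusted p = 0.0138). The gene lost its call without control replicate 2 (adjusted p = 0.0598) or without setb MO1 replicate 2 (0.0501). The alpha gene chrna2a overlapped (−0.037 ± 0.12, interval −0.31 to 0.24), with a sign that turned without control replicate 3 (0.044), setb MO1 replicate 1 (0.025) or 2 (0.011).

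Genes of receptors that act through G proteins also changed. Both measured genes of the GABA-B receptor, which works as a pair of these subunits, fell, against 20.8% of all genes. The first, gabbr1b, was at 8.78, 8.95 and 8.95 in controls and 8.60, 8.41 and 8.56 in setb MO1 samples (−0.37 ± 0.083, adjusted p = 0.00943). The second, gabbr2, was at 8.60, 8.72 and 8.67 in controls and 8.39, 8.24 and 8.43 in setb MO1 samples (−0.31 ± 0.075, adjusted p = 0.0131), and it lost its call without control replicate 2 (adjusted p = 0.0595). Both pairs of groups stood apart, by less than 0.5 log2 units between means. The gene gabbr2 reached 8.45 in control arrays alone. The metabotropic glutamate receptor gene grm7, of presynaptic terminals, did not pass (0.17 ± 0.073, adjusted p = 0.0957), though its groups did not overlap.

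Of the 6 genes for muscarinic, serotonin, dopamine and adrenergic receptors, 1 fell (16.7%, against 20.8% of all genes), 3 rose (50%, against 23.9%) and 2 did not pass. The muscarinic gene chrm2a, whose product slows the heart and also acts in neurons, was at 9.02, 8.84 and 8.84 in controls and 8.55, 8.34 and 8.43 in setb MO1 samples, 1.38-fold lower (−0.46 ± 0.084, adjusted p = 0.00398). The serotonin-gated channel gene htr3a was at 8.14, 8.25 and 8.35 in controls and 8.66, 8.60 and 8.95 in setb MO1 samples, 1.4-fold higher (0.48 ± 0.11, adjusted p = 0.00904). All setb MO1 arrays of htr3a exceeded its controls, which were below 8.45. The dopamine receptor gene drd5a was at 8.22, 8.25 and 8.56 in controls and 8.76, 8.59 and 8.91 in setb MO1 samples (0.41 ± 0.12, adjusted p = 0.0262), with control replicate 3 next to the lowest setb MO1 array. The gene lost its call without control replicate 1 (adjusted p = 0.0612) or 2 (0.0973) or without setb MO1 replicate 1 (0.0698) or 3 (0.0829). The adrenergic gene adra1ba was at 8.31, 8.45 and 8.43 in controls and 8.75, 8.53 and 8.68 in setb MO1 samples (0.26 ± 0.08, adjusted p = 0.0329). Its highest control array, at 8.445, lay just under the level of 8.451 that every probe set reached in at least 1 array. This gene lost its call without control replicate 1 (adjusted p = 0.0724), 2 (0.0708) or 3 (0.0511) or without setb MO1 replicate 1 (0.107) or 3 (0.0880). The adrenergic genes adra2b (−0.27 ± 0.11) and adrb3a (0.071 ± 0.075) overlapped and did not pass, and adra2b passed without control replicate 2 (adjusted p = 0.0369).

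**Figure D4:**
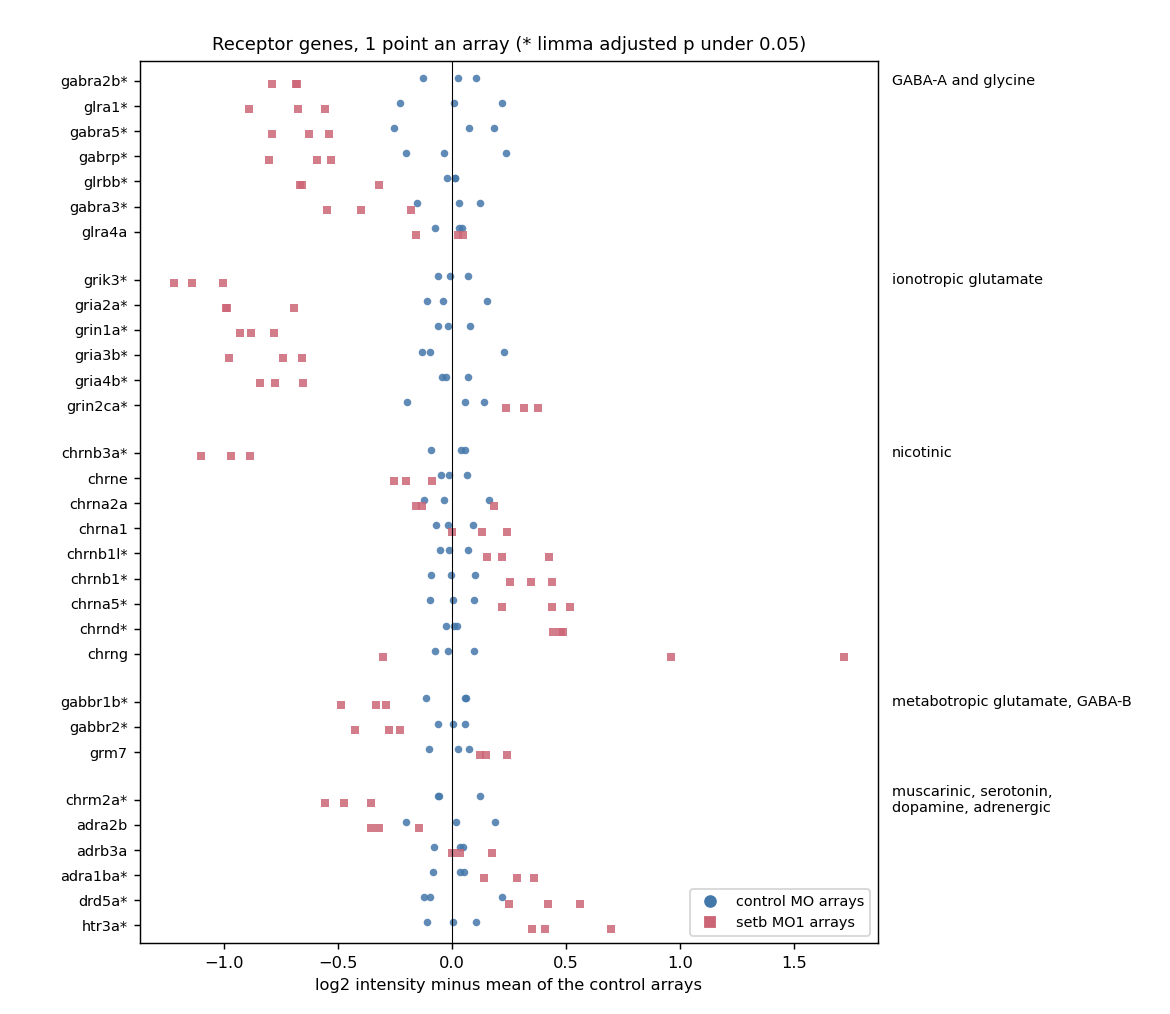
Log2 intensity of the 31 receptor genes in each array, less the gene's mean over the control arrays (horizontal axis), with control arrays as circles and setb MO1 arrays as squares, grouped by subclass. Stars mark the 23 genes that passed. GABA-A, glycine, AMPA and kainate receptor genes lie to the left except glra4a, nicotinic genes lie on both sides, and the 3 setb MO1 arrays of chrng spread over 2 log2 units.

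In skeletal muscle, the calcium channel of the transverse tubule senses the action potential and opens the calcium store. Its pore genes moved in opposite directions. The gene cacna1sa, known in zebrafish from slow fibres, was at 9.71, 9.93 and 9.94 in controls and 9.28, 9.21 and 9.42 in setb MO1 samples, 1.47-fold lower (−0.55 ± 0.091, adjusted p = 0.00267). The gene cacna1sb, known from fast fibres, was at 10.37, 10.62 and 10.70 in controls and 10.96, 10.91 and 11.04 in setb MO1 samples, 1.32-fold higher (0.41 ± 0.10, adjusted p = 0.0118). Both sets of groups stood apart. Of the myosin heavy chain genes measured on the muscle list, smyhc1 of slow fibres did not pass (0.083 ± 0.096). Those of fast fibres, myhz2 (−0.52 ± 0.058) and myhz1.1 (−0.34 ± 0.065), fell. These were named after their values were seen, and a change of fibre types was not tested. Within arrays, the log2 difference of cacna1sb less cacna1sa was 0.66, 0.70 and 0.76 in controls and 1.68, 1.71 and 1.61 in setb MO1 samples, a change of 0.96 (exact two-sided permutation p = 0.1, the smallest possible, and 0.12 adjusted over 6 pairs). As the 6 pairs were chosen after their values were seen, these p-values describe the pairs and do not test them. Of the pairs not described elsewhere, the within-array difference of scn8aa less scn8ab changed by −0.25 and that of chrnd less chrna1 by 0.35 (exact permutation p = 0.1 each), and that of chrng less chrne by 0.97 (exact permutation p = 0.3).

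Accessory genes of the muscle channel rose or did not pass. The gamma subunit gene cacng1a was at 8.64, 8.98 and 8.92 in controls and 9.63, 9.45 and 9.60 in setb MO1 samples, 1.64-fold higher (0.71 ± 0.10, adjusted p = 0.00157). Its relative cacng6a was at 8.77, 8.69 and 8.82 in controls and 9.47, 9.57 and 9.37 in setb MO1 samples, also 1.64-fold higher (0.71 ± 0.076, adjusted p = 0.000476). For neither gene did the groups overlap, and these were the largest rises among the channel genes. The paralog cacng6b changed by −0.17 ± 0.093 without passing (adjusted p = 0.173) and passed without control replicate 1 (adjusted p = 0.0255). The log2 difference of cacng6a less cacng6b within arrays was −1.72 ± 0.19 in controls and −0.84 ± 0.14 after setb MO1 (SD, n = 3 each, exact two-sided permutation p = 0.1, the smallest possible, for a pair chosen after its values were seen). The beta subunit gene cacnb1, without which zebrafish muscle is paralysed, was at 9.39, 9.38 and 9.50 in controls and 9.57, 9.62 and 9.67 in setb MO1 samples and rose by 0.20 ± 0.065 (adjusted p = 0.0415), a call lost without control replicate 1 (adjusted p = 0.0784) or 2 (0.143) or without setb MO1 replicate 1 (0.0672), 2 (0.106) or 3 (0.116). The alpha-2-delta gene cacna2d1a overlapped and did not pass (0.11 ± 0.08, interval −0.078 to 0.30). Outside the channel families, stac3, which encodes an adaptor of this complex and is on the list of muscle markers, rose by 0.45 ± 0.10 (adjusted p = 0.00752). The gene ryr1a of the calcium release channel rose by 0.53 ± 0.15 (adjusted p = 0.0247) and ryr1b did not pass (0.07 ± 0.16). Of these, ryr1a reached 8.45 in setb MO1 arrays alone. Named after their values were seen were ryr1a and ryr1b.

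At the neuromuscular junction, acetylcholine receptors are built from alpha subunits with a beta, a delta and a gamma or epsilon subunit. The delta gene chrnd was at 9.61, 9.59 and 9.56 in controls and 10.03, 10.06 and 10.07 in setb MO1 samples, tight within each group and 1.38-fold higher (0.47 ± 0.058, adjusted p = 0.000809). The beta gene chrnb1 was at 10.83, 10.92 and 11.02 in controls and 11.18, 11.27 and 11.36 in setb MO1 samples, 1.27-fold higher (0.35 ± 0.08, adjusted p = 0.0106). The related gene chrnb1l, at 8.62, 8.58 and 8.71 in controls and 8.85, 8.79 and 9.06 in setb MO1 samples, rose by 0.26 ± 0.086 (adjusted p = 0.0408), a call lost without control replicate 1 (adjusted p = 0.0723) or 2 (0.134) or without setb MO1 replicate 1 (0.0729) or 3 (0.106). The alpha gene chrna1 did not pass (0.12 ± 0.084, interval −0.074 to 0.32).

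In mammals the gamma subunit belongs to embryonic and the epsilon subunit to mature junctions. The epsilon gene chrne was at 10.57, 10.61 and 10.68 in controls and 10.36, 10.42 and 10.53 in setb MO1 samples, lower without overlap but not past the threshold (−0.18 ± 0.071, adjusted p = 0.0712). The gamma gene chrng was at 6.78, 6.95 and 6.84 in controls and 6.55, 7.82 and 8.58 in setb MO1 samples. Its setb MO1 arrays spread from below to well above the controls, and only setb MO1 replicate 3 reached 8.45. The change of 0.79 ± 0.44 did not pass (adjusted p = 0.182), became 1.34 and passed without setb MO1 replicate 1 (adjusted p = 0.00507), and was 0.33 without setb MO1 replicate 3 (adjusted p = 0.480). Over the 35 skeletal muscle markers the median change was 0.01. Some of them, such as myl1 (mean 13.57 in controls), lay near the highest value of the arrays, about 14.1. How far this limits their changes, and the part of muscle in the subunit changes, were not tested.

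**Figure D5:**
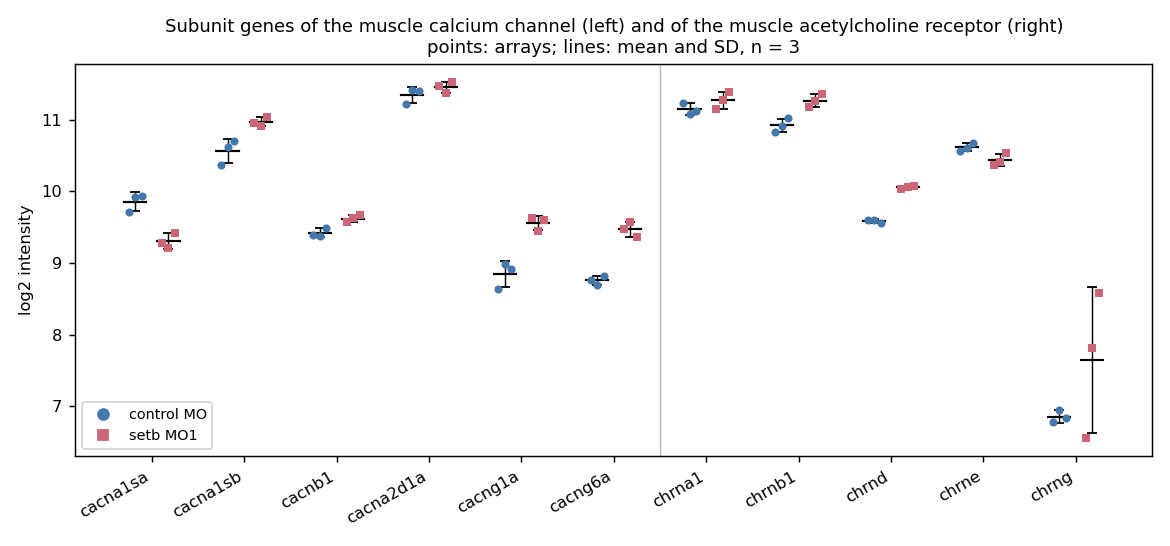
Log2 intensity (vertical axis) of 6 subunit genes of the muscle calcium channel and 5 of the muscle acetylcholine receptor, with a point for each array and the mean and SD of each group (n = 3). Not shown are cacng6b, which was lower without passing, and chrnb1l, which rose. Levels of cacna1sa and, without passing, chrne are lower in setb MO1 embryos without overlap. Those of cacna1sb, cacnb1, cacng1a, cacng6a, chrnb1 and chrnd are higher without overlap, and chrng spreads from 6.55 to 8.58 in setb MO1 embryos. Heights of different genes are not comparable, since probe sets differ in brightness.

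Genes that supply the transmitters of these receptors were counted from a separate list. Of 24 measured of 50 listed genes for transmitter synthesis and transport, 12 fell (50%, against 20.8% of all genes) and 2 rose (8.33%, against 23.9%). Of the 12 that fell, 6 reached 8.45 in control arrays alone, among them gad2, gad1b and slc6a1a. The smallest p-values among those that fell belonged to gad2 (−1.58 ± 0.085) and gad1b (−0.87 ± 0.068), which make GABA, and to slc6a1a, which takes GABA up again (−1.20 ± 0.083). The glutamine synthetase gene glulb (0.24 ± 0.075) and the GABA-degrading gene abat (0.29 ± 0.10) rose. The highest adjusted p among these 5 was 0.0428.

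Of 26 measured of 58 listed genes for receptor scaffolds and anchors, 14 fell (53.8%, against 20.8% of all genes) and 3 rose (11.5%, against 23.9%). Of the 14 that fell, 5 reached 8.45 in control arrays alone. The 3 that rose were musk, a receptor kinase of the neuromuscular junction (0.72 ± 0.15, adjusted p = 0.00805), rapsn, the cytoplasmic anchor of the acetylcholine receptor (0.33 ± 0.09, adjusted p = 0.0211), and agrn, a nerve-derived signal (0.24 ± 0.078, adjusted p = 0.0399). Those with the smallest p-values that fell were nlgn4xb, a neuroligin of the postsynaptic membrane (−1.0 ± 0.071, at 8.45 or above in control arrays alone), nsfa, the ATPase that recycles the fusion machinery (−0.79 ± 0.074), and sptbn4b, a spectrin of the axon initial segment where sodium channels gather (−1.15 ± 0.12). The highest adjusted p among these 3 was 0.000423.

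Channel families outside the rule were counted from a further list. Of 29 measured of 83 listed genes for other channels, 4 fell (13.8%, against 20.8% of all genes) and 10 rose (34.5%, against 23.9%), with a median of 0.08. The smallest p-values among the genes that rose were those of trpv4, a cation channel opened by osmotic and heat stimuli (0.66 ± 0.084), itpr1b, a calcium release channel of the endoplasmic reticulum (0.78 ± 0.10), and asic1a, an acid-sensing channel (0.68 ± 0.11). The chloride transporter gene clcn6 (−0.33 ± 0.059), the scramblase gene ano6 (−0.51 ± 0.11) and the calcium release channel gene ryr2a (−0.54 ± 0.15) fell. The highest adjusted p among the 6 was 0.0214. Of the 10 genes that rose, 5 reached 8.45 in setb MO1 arrays alone, among them trpv4, itpr1b and asic1a. Of the 4 that fell, 2 reached it in control arrays alone, ano6 and ryr2a.

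Of the 6 genes that share only letters with the receptors, 1 passed. The glutaredoxin gene glrx3, for a protein of iron handling, was at 10.93, 10.91 and 10.99 in controls and 11.30, 11.30 and 11.24 in setb MO1 samples (0.34 ± 0.061, adjusted p = 0.00388). The others lay between −0.22 ± 0.12 for glrx2 and 0.22 ± 0.08 for htra2-14, which passed without setb MO1 replicate 3 (adjusted p = 0.0280), in the fit to gene rows alone (0.0471), after repeated quantile normalization (0.0216) and with array weights (0.00310). The weighted fit rested on control replicate 2. The signs of glrx (0.036 without setb MO1 replicate 1) and htra1a (0.022 without control replicate 1) turned in a single removal each.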

How the data were processed

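Total RNA of 3 control and 3 setb MO1 samples was measured on 1 Affymetrix array each. The authors deposited log2 intensities for 15726 probe sets, made with RMA per the submitters' processing notes, which corrects background, quantile normalises and summarises probes. Neither its version nor how dim probe sets were removed is given in the sources used here. Of the probe sets, 11738 had 1 symbol in the platform annotation, and each of the 11304 genes (symbols compared without regard to case) was represented by its brightest one. All 74 matching genes kept their symbol in RefSeq (GRCz12tu, names only). limma 3.58.1 in R 4.3.3 was fitted to all probe sets (lmFit, eBayes, two-sided), with Benjamini-Hochberg adjustment over genes at 0.05, and was tested on simulated data. This fit replaced an earlier one to the gene rows alone, with symbols compared by case, after the results of both were seen, and 3 matching genes that passed in the earlier fit did not pass in this one. Changes are setb MO1 minus control with SE and 95% interval. Every array is given for up to 4 genes of the smallest p in each direction and subclass, and for scn8ab, kcnk5a, chrne, chrng and glrx3, chosen after their values were seen. For related lists, up to 3 genes a direction are named. Members and lists were chosen with earlier results of these data known. Scan dates and batches were not used here, and precision is limited by the number of arrays. Alternatives were a repeated quantile normalization, equal medians, filters on mean level (30th percentile or median), other priors, array weights, a replicate block, means over probe sets, a threshold of 0.01 and leaving out each array.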

Additional observations from a re-analysis of the deposited data

How the results depend on the processing

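Of the 46 matching genes that passed, 35 passed without any single array and 11 lost their call in at least 1 removal. None of the genes that passed changed sign under any setting run. Without single arrays, channel genes fell in 14 to 18 and rose in 4 to 6 cases, and receptor genes fell in 14 to 15 and rose in 3 to 7. Among all genes, 1690 to 2317 fell and 1833 to 2697 rose. Fewer genes were tested above the 30th percentile of level, where 7 of 18 channel genes fell and 5 rose, 3 of 9 receptor genes fell and 3 rose, and of 7913 genes in all 1586 fell and 1934 rose. Above the median, of 8 channel and 4 receptor genes, 2 channel genes fell and 2 rose, 0 receptor genes fell by limma (1, chrne, at an unadjusted p under 0.05) and 2 rose, and of 5652 genes in all 1141 fell and 1395 rose. At a threshold of 0.01, 12 channel genes fell and 3 rose, 13 receptor genes fell and 2 rose, and 1454 of all genes fell and 1586 rose. With array weights 4173 of all genes rose, in a fit that rested on control replicate 2 (weight 58.9 against 0.207 to 0.803) and in which 12 matching genes passed that did not as reported. The 12 were scn8ab, scn4ba, cacng6b, cacnb3b, kcnip4a, kcnj11, kcnj13, chrne, chrna1, grm7, glrx5 and htra2-14. Signs turned under weights for glra4a (0.067), kcna7 (0.030), kcnk5a (−0.083) and scn3b (−0.032), none of which passed, and after repeated quantile normalization for cacng5b (2e-04). Without single arrays they turned in 7 genes that did not pass, whose changes ranged from −0.12 to 0.040 for cacng5b, −0.15 to 0.044 for chrna2a, −0.067 to 0.037 for glra4a, −0.12 to 0.036 for glrx, −0.089 to 0.022 for htra1a, −0.17 to 0.52 for kcnk5a and −0.025 to 0.041 for scn3b. Whether the replicate numbers pair the arrays is not in the labels. Deviations of same-numbered arrays correlated at 0.0686, −0.356 and 0.361, and those of differently numbered arrays at −0.376 to 0.396. With 3 arrays a group these values cannot decide it. A replicate block gave 16 channel genes that fell and 4 that rose, and 15 receptor genes that fell and 7 that rose, beside 2220 and 2569 of all genes. Under the block the calls on kcnn3 (adjusted p = 0.0544), adra1ba (0.0623), cacna2d3 (0.0541), cacnb1 (0.0693) and gabra3 (0.0541) were lost, and scn4ba (0.0250) and adra2b (0.0408) passed. A limma fit to the gene rows alone, with symbols compared by case, was run first and was replaced by the fit to all probe sets after the results of both had been seen. It is therefore an alternative chosen after seeing the data. It tested 11311 genes, of which 5261 passed (2447 fell and 2814 rose), with 18 channel genes that fell and 6 that rose and 15 receptor genes that fell and 8 that rose. It differed in the calls on 3 matching genes, scn8ab (adjusted p = 0.0473), scn4ba (0.0484) and htra2-14 (0.0471), which passed there and did not pass as reported. The level of 8.45 is the lowest maximum of any probe set, not a measured background, and how far dim signal limits a fold was not tested. The cause of these differences was not tested.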
